A study of Homo sapiens with 8 samples.

Results

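A group of 10 genes whose products switch off signalling by mitogen-activated protein (MAP) kinases was followed in HEK293 cells with and without a TIP60 knock-out (KO). They are 7 dual-specificity phosphatases (DUSP1, DUSP2, DUSP4, DUSP5, DUSP6, DUSP8 and DUSP10), 2 Sprouty genes (SPRY2 and SPRY4) and the Sprouty-related gene SPRED1. They were chosen by symbol through their Entrez gene IDs, and make up 10 of the 27936 genes with an ID in the count tables. These genes, and the pathway lists set beside them below, were chosen with earlier results of these data known. Of the 10, 8 held enough counts to be tested, DUSP2 did not, and DUSP8 was listed at 0 in every library.

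HEK293 is an established human embryonic kidney cell line, and TIP60, the product of KAT5, is a lysine acetyltransferase. Poly(A) RNA was sequenced from 8 libraries: 4 labelled TIP60 KO and 4 labelled control, with 2 libraries of sgRNA1 and 2 of sgRNA2 in each arm. The labels give the KO libraries the genotype HEKg1/C9 and the control libraries the genotype HEKg1, for both guide numbers, and do not explain these names. The cells of all 8 libraries, controls included, received doxycycline at 1 µg/ml for 3 days, which induced the guide RNAs. The sites that the guides target, the target of the control guides and whether a line is a clone are not given in the labels. Nor do the labels say that replicates came from separate cultures, so p-values measure only the spread between these libraries, which may be technical.

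MAP kinases (ERK, JNK and p38) are switched on by phosphorylation of a threonine and a tyrosine in their activation loop. The MAP kinase phosphatases of the DUSP family remove both phosphates, and Sprouty and SPRED proteins act further up, between growth factor receptors and the kinase RAF. Transcription of many of these genes is itself raised by MAP kinase signalling, which makes them negative feedback genes, and their transcripts are often used as a readout of the pathway. The files hold RNA counts only: kinase phosphorylation was not measured here.

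The start regions of 3 of these genes are shown because they span the range of the results. DUSP1 had the highest level per kilobase of transcript in both arms, SPRY4 had the largest fold change, and DUSP8 was listed at 0. Each is a RefSeq promoter window on GRCh38.p14, on the minus strand, from 250 bases before the transcription start to 50 bases after it. The windows are chr5:172771146-172771445 for DUSP1, chr11:1572222-1572521 for DUSP8 and chr5:142324198-142324497 for SPRY4. The DUSP8 and SPRY4 windows lie inside the annotated genes. The upstream ends of these genes, at 1572848 and 142325021, were not searched. Capitals mark TGACGTCA (the cyclic AMP response element, CRE), its core TGACG, and TATAAA (the TATA box), read on both strands.
DUSP1: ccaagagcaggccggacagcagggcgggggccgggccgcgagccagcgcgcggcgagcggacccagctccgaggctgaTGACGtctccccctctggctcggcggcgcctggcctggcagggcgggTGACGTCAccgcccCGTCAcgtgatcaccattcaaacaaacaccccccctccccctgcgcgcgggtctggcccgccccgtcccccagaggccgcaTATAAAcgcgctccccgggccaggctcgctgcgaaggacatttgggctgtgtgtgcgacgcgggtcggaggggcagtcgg
DUSP8: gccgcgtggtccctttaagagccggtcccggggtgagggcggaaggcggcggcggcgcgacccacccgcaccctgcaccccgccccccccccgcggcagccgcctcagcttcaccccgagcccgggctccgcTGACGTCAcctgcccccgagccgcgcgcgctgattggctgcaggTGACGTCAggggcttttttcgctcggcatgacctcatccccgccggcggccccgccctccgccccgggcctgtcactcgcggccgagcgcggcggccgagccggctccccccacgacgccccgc
SPRY4: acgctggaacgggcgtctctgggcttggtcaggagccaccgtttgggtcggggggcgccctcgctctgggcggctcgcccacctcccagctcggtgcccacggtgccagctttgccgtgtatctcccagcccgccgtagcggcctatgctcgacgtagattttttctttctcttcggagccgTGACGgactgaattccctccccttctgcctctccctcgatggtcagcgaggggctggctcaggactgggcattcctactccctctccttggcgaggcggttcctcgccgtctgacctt

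DUSP1 held a full CRE at -125 (leftmost base, with -1 the base just before the start) and a TATA box at -30, while DUSP8 held a full CRE at -118 and another at -74. SPRY4 held the core alone, at -68. A full CRE was present in 1.85% of 35116 promoter windows of the same length, the core (which every full CRE contains) in 24.6%, and the TATA box in 11.5%. Windows were available for 8 of the 10 genes, 11 windows in all, with several starts for DUSP10 and SPRY2; DUSP4 was not searched, and DUSP5 had no entry. DUSP1 and DUSP8 were the 2 of 8 genes with a full CRE, and DUSP1, DUSP8, DUSP10, SPRY2 and SPRY4 were the 5 of 8 with the core. Counted by window, as the shares above are, 2 of 11 windows held a full CRE and 5 of 11 the core. TGANTCA (the AP-1 site, in 7.71% of windows), CCGGAAG (an ETS site, in 10.3%) and the CArG box (in 1.29%) matched in none of the 11 windows. GGGCGG (an SP1 site, in 45% of windows, not capitalised above) matched in 7 of 8 genes, all but DUSP6, and in 9 of 11 windows. A match is a string of letters and does not show that a factor binds there.

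Depth ranged from 3723992 counts (control sgRNA1 replicate 2, the shallowest) to 18841774. KAT5 fell from 46.8 ± 2.12 CPM (counts per 1000000 counts of the library; SD, n = 4) in control libraries to 18.8 ± 0.965 in KO libraries, a log2 fold change of -1.32 ± 0.064 (SE). Of the exonic bases of KAT5, 38.6% are overlapped by RNASEH2C on the other strand, and reads of the pair cannot be told apart where counting ignored the strand. Of 8 HEK293 markers 7 passed the count filter, led by the neurofilament gene NEFM at a mean of 12408 CPM in KO and 8385 CPM in control libraries. The kidney-lineage markers were low. PAX2 had a mean of 0.902 CPM in KO and 0.706 CPM in control libraries, and LHX1, which was not tested, 0.145 and 0.170 CPM. Of the 7 tested markers 4 were higher in KO, 1 was lower and 2 were not called. Summed markers of 5 other cell types were low: leukocyte markers (5 genes, mostly CD68) lay at 6.69 to 7.58 CPM in KO and 3.77 to 5.49 CPM in control libraries, and fibroblast markers (4 genes, mostly COL1A1) at 16.2 to 20.5 and 12.6 to 21.0 CPM. Endothelial markers (4 genes, mostly KDR) lay at 2.78 to 3.80 CPM in KO and 0 to 0.404 CPM in control libraries, and CDH5 was at 0 in every control library. Hepatocyte markers (3 genes) lay at 0.234 to 0.594 CPM in KO and 0 to 0.0690 CPM in control libraries, and epithelial carcinoma markers (4 genes) lay at 27.9 to 30.6 CPM in KO and 28.0 to 34.8 CPM in control libraries. The part of these markers in the results was not tested.

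All 8 tested feedback genes were higher in TIP60 KO than in control libraries by edgeR's quasi-likelihood test (adjusted p under 0.05 after Benjamini-Hochberg adjustment over 14455 genes). Over all tested genes, 31.8% were called higher and 31.2% lower, so a call in this direction is common in this comparison. In each of the 8 genes every KO library lay above every control library, which was so for 27.3% of all tested genes. Of the 8, 6 were called higher by 2-fold or more, against 8.38% of all tested genes; DUSP4 and SPRED1 rose by less. The median log2 fold change of the 8 was 1.58, and that of all tested genes was 0.0068. SPRY4 reached the level of the count filter in KO libraries only, so a gene like it had to differ to be tested. Without SPRY4, 7 of 7 genes were called higher, 5 of them by 2-fold or more, with a median of 1.43. In all 7, every KO library lay above every control library. DUSP5 had a larger log2 fold change than 98.0% of tested genes, DUSP1 than 97.2%, and SPRED1, the smallest of the group, than 77.9%. Since these are bulk samples, more cells with a transcript and more transcript per cell cannot be told apart.

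**Figure D1:**
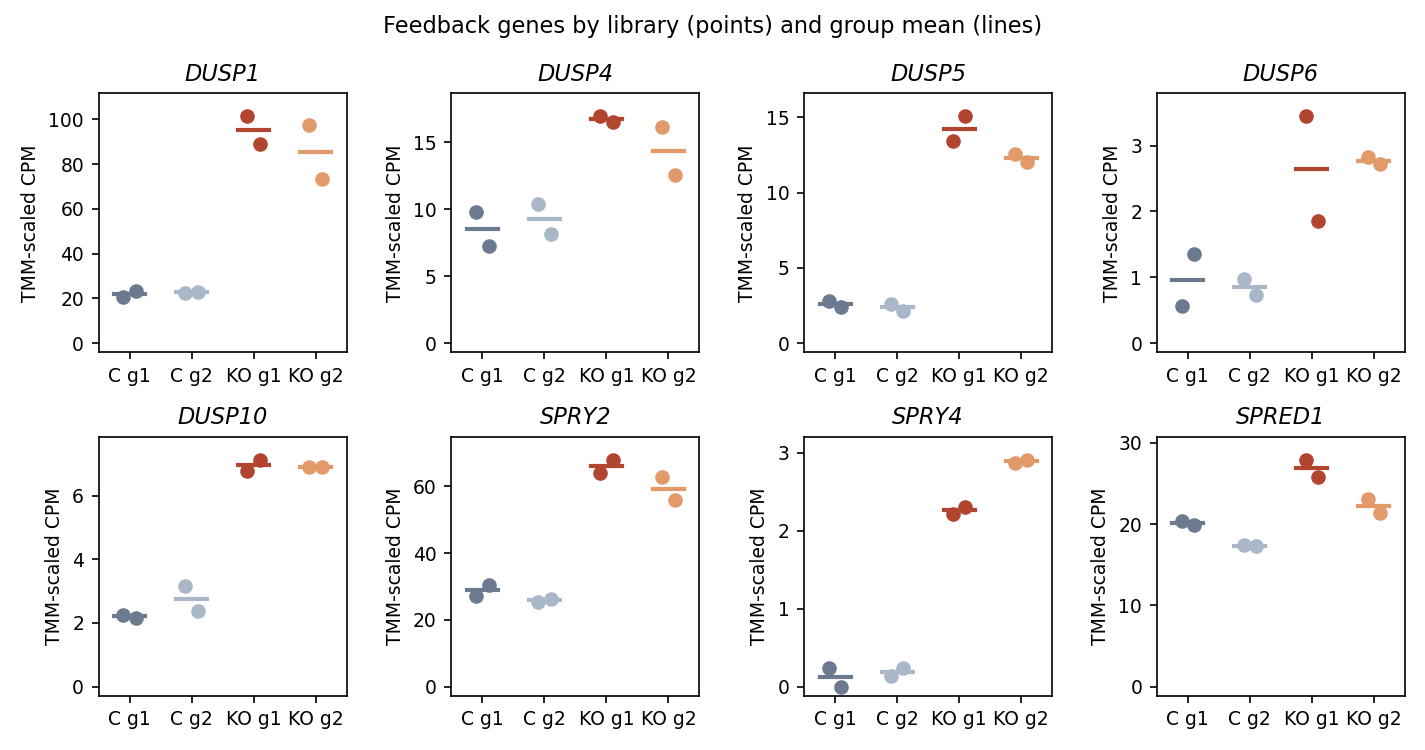
Level of the 8 tested feedback genes in each library, in CPM scaled by TMM factors (y axis), for control (C) and KO libraries of sgRNA1 (g1) and sgRNA2 (g2). Points are libraries and lines are means of 2 libraries. All KO points lie above all control points in each panel; in SPRED1 the lowest KO library is at 21.3 and the highest control library at 20.4 CPM.

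DUSP1, DUSP2, DUSP4 and DUSP5 encode the inducible phosphatases of the nucleus. DUSP1 acts on p38, JNK and ERK, and its gene lies on chromosome 5 (172768096 to 172771195, minus strand, GRCh38). Its level in KO libraries was 101, 88.9, 97.4 and 73.3 CPM (sgRNA1 replicates 1 and 2, then sgRNA2 replicates 1 and 2), and in control libraries 20.8, 23.2, 22.5 and 22.8 CPM in the same order. The control libraries were close to each other, and KO sgRNA2 replicate 2 was the lowest of the KO libraries. DUSP1 rose from 22.3 ± 1.06 to 90.3 ± 12.5 CPM (SD, n = 4), a log2 fold change of 2.02 ± 0.086 (SE, edgeR adjusted p = 8.78e-14).

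DUSP5, which is selective for ERK, lies on chromosome 10 (110497907 to 110511533, plus strand). Its KO libraries held 13.4, 15.1, 12.5 and 12.1 CPM and its control libraries 2.83, 2.42, 2.62 and 2.12 CPM, in the order used for DUSP1. The lowest KO library was several times the highest control library. DUSP5 rose from 2.50 ± 0.303 to 13.3 ± 1.33 CPM (SD, n = 4), a log2 fold change of 2.37 ± 0.13 (SE, edgeR adjusted p = 3.56e-12). The related pseudogene DUSP5P1 had 36 counts over the KO and 17 over the control libraries, against 855 and 108 for DUSP5; reads that fit both copies may have been split between them.

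DUSP4, which acts on ERK and JNK, lies on chromosome 8 (29333064 to 29350684, minus strand). Its KO libraries held 16.9, 16.5, 16.2 and 12.5 CPM and its control libraries 9.78, 7.27, 10.4 and 8.14 CPM. The groups did not overlap, but KO sgRNA2 replicate 2 came within a few CPM of control sgRNA2 replicate 1. DUSP4 rose from 8.90 ± 1.45 to 15.5 ± 2.03 CPM (SD, n = 4), a log2 fold change of 0.74 ± 0.11 (SE, edgeR adjusted p = 1.08e-05). DUSP2, best known from activated lymphocytes, lies on chromosome 2 (96143169 to 96145440, minus strand) and was barely detected, with 0, 2, 1 and 6 counts in the KO and 0, 0, 2 and 1 counts in the control libraries. It did not pass the count filter, its groups overlapped, and an exact two-sided permutation test of its log2 CPM gave p = 0.457 (4 against 4 libraries, smallest possible p 0.0286). Its ratio of KO to control CPM, from summed counts, was 1.98, with an exact 95% interval of 0.495 to 11.4, so a change of DUSP2 was not detectable at this depth.

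DUSP6 encodes the ERK-selective phosphatase of the cytoplasm and lies on chromosome 12 (89347235 to 89352501, minus strand). Its level was low, at 3.45, 1.86, 2.82 and 2.71 CPM in KO and 0.566, 1.35, 0.966 and 0.733 CPM in control libraries. Libraries of sgRNA1 were the most spread in both arms: KO sgRNA1 replicate 2 was the lowest KO library, and control sgRNA1 replicate 2, the shallowest library, was the highest control library. DUSP6 rose from 0.903 ± 0.339 to 2.71 ± 0.654 CPM (SD, n = 4), a log2 fold change of 1.74 ± 0.28 (SE, edgeR adjusted p = 1.85e-05), from 35 counts over the control and 179 over the KO libraries. An antisense gene, AC024909.2, overlaps 40.5% of its exonic bases, and the strand setting of the counting is not given in the sources used here, so reads of the pair cannot be told apart if the counting ignored the strand.

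DUSP8 and DUSP10 act on JNK and p38 rather than on ERK. DUSP10 lies on chromosome 1 (221701424 to 221742089, minus strand), and its KO libraries held 6.78, 7.13, 6.90 and 6.89 CPM against 2.26, 2.16, 3.17 and 2.36 CPM in control libraries. The KO libraries of DUSP10 were nearly level, and control sgRNA2 replicate 1 stood above the other control libraries. DUSP10 rose from 2.49 ± 0.465 to 6.92 ± 0.149 CPM (SD, n = 4), a log2 fold change of 1.43 ± 0.15 (SE, edgeR adjusted p = 7.75e-08). DUSP8, on chromosome 11 (1554051 to 1572848, minus strand), was listed at 0 in all 8 libraries. Its neighbours MOB2 and CTSD had 2646 and 24014 counts over the 8 libraries, while HRAS and RNH1, farther along the same arm and active in most cells, were also listed at 0. DUSP8 is therefore given only as listed at 0, and the cause was not tested.

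SPRY2 and SPRY4 encode Sprouty proteins, which damp signalling from growth factor receptors to Ras and ERK. SPRY2 lies on chromosome 13 (80335976 to 80341126, minus strand), and its KO libraries held 64.0, 68.0, 62.7 and 55.9 CPM against 27.1, 30.4, 25.5 and 26.2 CPM in control libraries. The spread within each arm was small beside the gap between the arms. SPRY2 rose from 27.3 ± 2.19 to 62.6 ± 5.03 CPM (SD, n = 4), a log2 fold change of 1.21 ± 0.060 (SE, edgeR adjusted p = 8.04e-13).

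SPRY4, on chromosome 5 (142310430 to 142325021, minus strand), was close to undetected in control libraries, with 3, 0, 2 and 3 counts, and had 38, 31, 55 and 44 counts in KO libraries. These are 2.22, 2.30, 2.88 and 2.91 CPM in KO and 0.242, 0, 0.138 and 0.244 CPM in control libraries, a mean of 2.58 ± 0.368 against 0.156 ± 0.115 (SD, n = 4). The ratio of KO to control CPM, from summed counts, was 13.9, with an exact 95% interval of 6.89 to 32.7 that covers counting error only, and the fitted log2 fold change was 3.76 ± 0.35 (SE, edgeR adjusted p = 1.07e-08). SPRY4 passed the count filter only through its KO libraries: all 4 of them and 0 of the control libraries reached the filter's 0.716 CPM. With counts thinned to the shallowest library the fitted value was 4.85, so the size of the change is known only roughly. Its antisense gene SPRY4-AS1 had 2 counts over the KO and 0 over the control libraries.

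SPRED1 encodes a membrane protein that brings neurofibromin, a Ras inhibitor, to the membrane, and lies on chromosome 15 (38252836 to 38357249, plus strand). Its KO libraries held 27.9, 25.8, 23.1 and 21.3 CPM and its control libraries 20.4, 19.9, 17.4 and 17.3 CPM. In both arms the sgRNA1 libraries were above the sgRNA2 libraries, and the lowest KO library was less than 1 CPM above the highest control library. SPRED1 rose from 18.7 ± 1.64 to 24.6 ± 2.92 CPM (SD, n = 4), a log2 fold change of 0.39 ± 0.071 (SE, edgeR adjusted p = 8.26e-05), the smallest change among the 8 genes.

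The feedback genes summed to 188 to 236 CPM in KO and 79.9 to 86.8 CPM in control libraries. DUSP1 and SPRY2 made up 68.7 to 71.3% of that sum in KO and 57.1 to 61.8% in control libraries. KO sgRNA2 replicate 2 was the lowest KO library for 5 of the 8 genes (DUSP1, DUSP4, DUSP5, SPRY2 and SPRED1), and the reason was not tested. Per kilobase of transcript, the KO order was DUSP1 (44.6 CPM per kb), SPRY2 (19.3), DUSP5 (5.25), SPRED1 (3.00), DUSP10 (2.45), DUSP4 (1.71), DUSP6 (0.798) and SPRY4 (0.368). In control libraries the order was DUSP1 (11.02 CPM per kb), SPRY2 (8.41), SPRED1 (2.29), DUSP5 (0.988), DUSP4 (0.981), DUSP10 (0.879), DUSP6 (0.266) and SPRY4 (0.0223). DUSP5, DUSP4 and DUSP10 were neighbours in the control order within the spread of their libraries, and in the KO order no neighbours overlapped. DUSP5 was above SPRED1 in the KO order and below it in the control order.

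**Figure D2:**
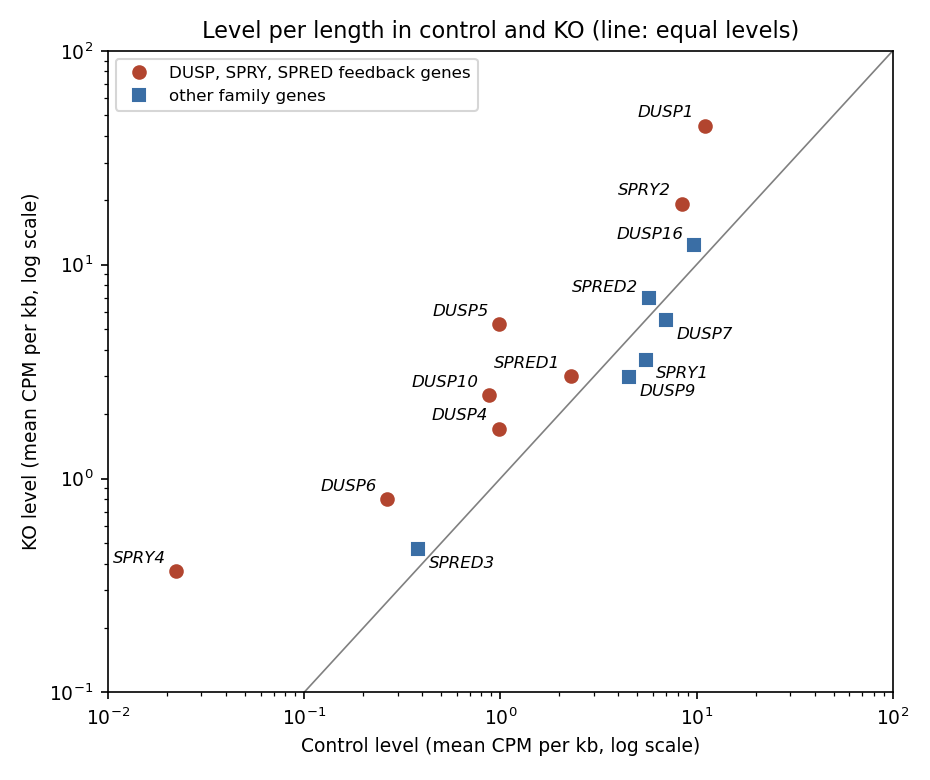
Mean level per transcript length in control (x axis) and KO libraries (y axis), both in CPM per kb on log scales, for the 8 tested feedback genes (circles) and other genes of the DUSP and Sprouty families (squares); each point is a mean of 4 libraries, with the SDs of the feedback genes given in CPM in the text. SPRY4 lies farthest above the line of equal levels (0.368 against 0.0223 CPM per kb), while DUSP7, DUSP9 and SPRY1 lie below it.

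The same 8 genes were called higher with each guide number by edgeR's quasi-likelihood test on contrasts of the 4 group means, where 24.3% of all tested genes were called higher with sgRNA1 and 25.7% with sgRNA2. The median log2 fold change of the 8 genes was 1.74 with sgRNA1 and 1.49 with sgRNA2. SPRY4 counts among the 8 and in these medians, although it passed the count filter through KO libraries only. SPRY4 changed by 3.54 ± 0.57 (log2, SE) with sgRNA1 and 3.89 ± 0.45 with sgRNA2. DUSP1 changed by 2.15 ± 0.13 and 1.92 ± 0.12, and DUSP5 by 2.38 ± 0.20 and 2.36 ± 0.17. These pairs of values lay within the sum of their standard errors.

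DUSP6 changed by 1.84 ± 0.46 and 1.68 ± 0.37 (log2, SE) with sgRNA1 and sgRNA2, and DUSP10 by 1.63 ± 0.24 and 1.30 ± 0.19. SPRY2 changed by 1.23 ± 0.093 and 1.20 ± 0.083, DUSP4 by 0.88 ± 0.17 and 0.63 ± 0.15, and SPRED1 by 0.41 ± 0.11 and 0.36 ± 0.098. The difference between the guides was tested itself, as an interaction in edgeR's quasi-likelihood test: 0 of the 8 genes passed, 0 had an unadjusted p under 0.05, and 0% of all tested genes passed. The differences ranged from -0.33 (DUSP10) to 0.35 (SPRY4) on the log2 scale, and their smallest unadjusted p was 0.221. That does not show that the guides act alike, since the standard error for SPRY4 was larger than its difference. The labels do not say how KO and control guides of the same number are related. The interaction therefore holds differences between the control groups as well as between the KO groups.

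The calls within 1 guide number rest on pairs of libraries and were lost under some alternatives for DUSP6, SPRED1 and DUSP4. By edgeR's test, DUSP6 with sgRNA1 lost its call without control sgRNA1 replicate 1 (log2 1.01, adjusted p = 0.263), without KO sgRNA1 replicate 1 (1.28, adjusted p = 0.0733) and with counts thinned to the shallowest library (1.13, adjusted p = 0.138). SPRED1 lost its edgeR call with sgRNA1 without KO sgRNA1 replicate 1 (0.35, adjusted p = 0.0536) and with sgRNA2 without KO sgRNA2 replicate 1 (0.29, adjusted p = 0.0602). Thinning took its adjusted p to 0.103 with sgRNA1 and 0.280 with sgRNA2. DUSP4 with sgRNA2 lost its edgeR call without KO sgRNA2 replicate 1 (0.41, adjusted p = 0.0589). Where leaving out a library left a group with 1, that library was assumed to vary like the other groups.

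**Figure D3:**
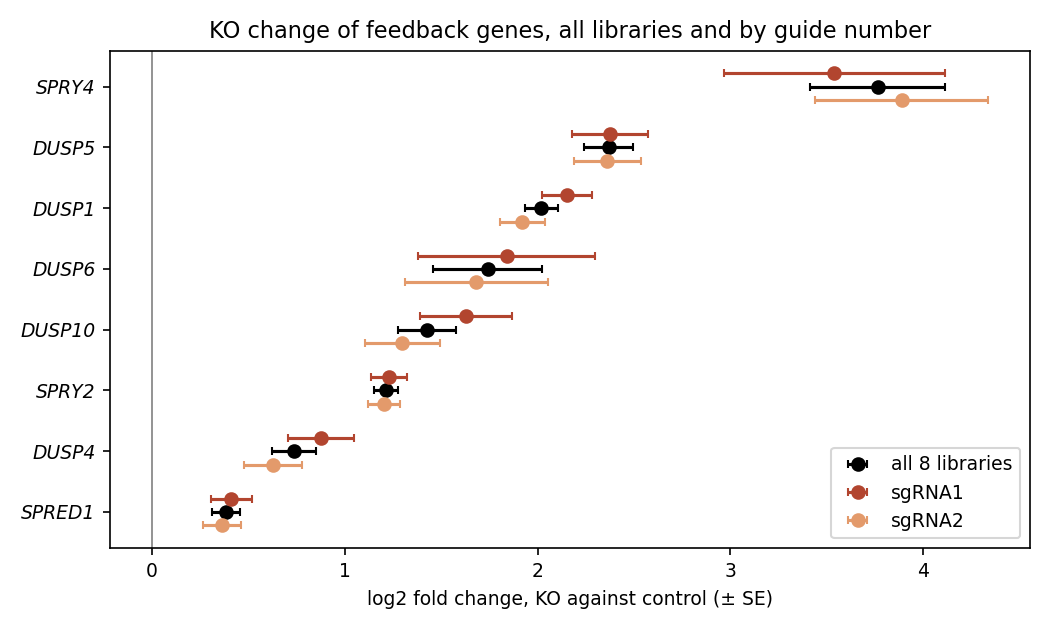
Log2 fold change of KO against control with its SE (x axis) for the 8 tested feedback genes, from all 8 libraries (black) and within sgRNA1 and sgRNA2. All values lie to the right of 0, and SPRY4 and DUSP6 have the widest errors (0.57 and 0.46 with sgRNA1).

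Between the control groups, 0 of the 8 genes passed edgeR's quasi-likelihood test for sgRNA2 against sgRNA1, 0 had an unadjusted p under 0.05, and the log2 differences ranged from -0.22 to 0.32; 0.0277% of all tested genes passed. Between the KO groups 0 of the 8 passed and 0% of all tested genes did. SPRED1 alone had an unadjusted p under 0.05 there, being lower with sgRNA2 (log2 -0.27 ± 0.091, edgeR unadjusted p = 0.00717, adjusted p = 0.993). The KO changes of the 8 genes, from 0.39 (SPRED1) to 3.76 (SPRY4), were all larger than the widest difference between the control groups. SPRY4 passed the count filter through KO libraries only. For SPRED1 the margin was narrow: log2 differences of the 8 genes between the KO groups ranged from -0.27 to 0.36, and SPRED1 changed by 0.36 with sgRNA2.

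The closest relatives of these genes did not all move the same way. Of 3 other MAP kinase phosphatases, DUSP16 rose and DUSP7 and DUSP9 fell, where 31.8% of all tested genes were called higher and 31.2% lower. DUSP9 acts on ERK and p38 and fell by 0.57 on the log2 scale (13.2 to 8.66 CPM). DUSP7, an ERK-selective phosphatase of the cytoplasm like DUSP6, fell by 0.32 on the log2 scale (22.6 to 17.9 CPM). DUSP16, which acts on JNK and p38, rose by 0.33 (66.8 to 84.9 CPM). With counts thinned to the shallowest library DUSP7 no longer passed edgeR's test (-0.24, adjusted p = 0.104). Per kilobase, DUSP7 stood at 6.98 CPM in control and 5.52 CPM in KO libraries, so it was above DUSP6 (0.266 and 0.798 CPM per kb) in both arms.

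Among 4 other Sprouty and SPRED genes, 3 were tested: SPRY1 fell, SPRED2 rose, and SPRED3 did not pass (log2 0.36 ± 0.20, edgeR adjusted p = 0.130). SPRY1 fell from 19.7 ± 2.51 to 12.8 ± 0.687 CPM (SD, n = 4), the opposite direction to SPRY2 and SPRY4. SPRED2 rose by 0.32 on the log2 scale (33.2 to 40.4 CPM). The atypical dual-specificity phosphatases are smaller enzymes that mostly lack a MAP kinase docking domain. Of 9 tested, 3 were higher, 3 lower and 3 not called, with a median log2 fold change of 0.07. These counts, and those of the Sprouty and SPRED genes, stand beside 31.8% of all tested genes called higher and 31.2% called lower. DUSP3 and DUSP22 fell by 0.30 and 0.28 on the log2 scale, and DUSP18, of whose exonic bases 34.4% are overlapped by SLC35E4 on the other strand, rose by 0.49 but did not pass edgeR's test with thinned counts (0.31, adjusted p = 0.179).

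Other inhibitors of receptor and Ras signalling were mixed, with 5 of 17 tested genes higher, 7 lower and 5 not called (median log2 fold change -0.05). These counts, like those of the lists that follow, stand beside 31.8% of all tested genes called higher and 31.2% called lower. Of the 7, RASAL1 passed the count filter through control libraries only. ERRFI1, a feedback inhibitor of the EGF receptor family, rose from 34.7 to 110 CPM (log2 1.63 ± 0.067, SE). PEA15, which holds ERK in the cytoplasm, and LRIG1, which lowers the level of growth factor receptors, rose by 0.41 and 0.38. Of the exonic bases of LRIG1, 12.9% are overlapped by SLC25A26 on the other strand. Of 6 tested phosphatases of other families that act on MAP kinases, 4 rose, 0 fell and 2 were not called (median 0.14). PTPN5, a tyrosine phosphatase of neurons, had 155 counts over the KO and 2 over the control libraries, a ratio of 51.3 with an exact 95% interval of 14.0 to 427. PTPN5 passed the count filter through KO libraries only, and without it 3 of 5 genes rose. Of the exonic bases of PPM1B, 21.8% are overlapped by AC013717.1 on the same strand and 8.6% by AC019129.2 on the other. PPM1B rose by 0.48 and PPM1D by 0.15 on the log2 scale, and the change of PPM1D did not pass edgeR's test without KO sgRNA1 replicate 1 (0.12, adjusted p = 0.0931), without control sgRNA1 replicate 2 (0.12, adjusted p = 0.0522), with thinned counts, or with no count filter (0.13, adjusted p = 0.0597).

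**Figure D4:**
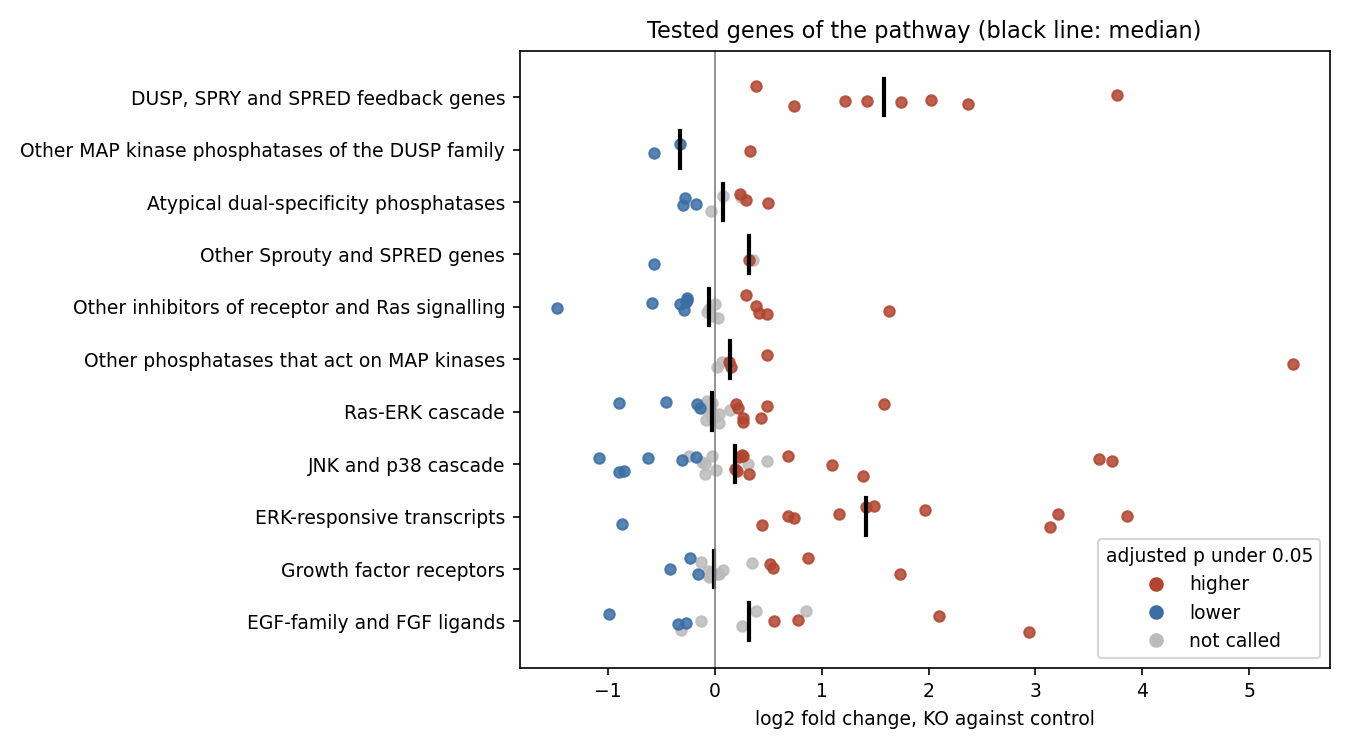
Log2 fold change of KO against control (x axis) for each tested gene of the feedback group and of 10 lists of the pathway (rows); each point is a gene, coloured by its call at an adjusted p under 0.05 (edgeR), and black lines are medians. The feedback genes and the ERK-responsive transcripts have medians of 1.58 and 1.42, and the other 9 lists have medians from -0.32 to 0.32. SPRY4, ETV4 and IER3 passed the count filter through KO libraries only, and without them the first medians are 1.43 and 1.16. Points of PTPN5, GADD45G and AREG (filter passed through KO libraries only) and RASAL1 (control libraries only) are also shown.

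The kinases of the pathway showed no shared direction. In the Ras-ERK cascade 7 of 23 tested genes were higher, 4 were lower and 12 were not called, with a median log2 fold change of -0.02. RPS6KA2, a kinase activated by ERK, rose from 7.83 to 24.3 CPM (1.58 ± 0.094), and SHOC2, which helps to activate RAF, rose by 0.43. MAPK3, an ERK kinase, fell from 67.9 to 36.3 CPM (-0.90 ± 0.055). In the JNK and p38 cascade 11 of 25 genes were higher, 6 were lower and 8 were not called (median 0.18); without GADD45G, which passed the count filter through KO libraries only, 10 of 24 were higher (median 0.09). GADD45B, a stress-induced activator of the p38 and JNK pathway, rose from 6.32 ± 1.74 to 89.2 ± 7.33 CPM (SD, n = 4). MAP2K4, a kinase that activates JNK, rose by 0.69, and MAPK12, a p38 kinase whose exons overlap those of HDAC10 on the same strand over 29.3% of their bases, fell by 1.09 on the log2 scale.

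Transcripts known to respond to ERK were mostly higher: 10 of 11 tested genes rose, 1 fell and 0 were not called, with a median log2 fold change of 1.42, where 31.8% of all tested genes were called higher. ETV4 and IER3 passed the count filter through KO libraries only; without them 8 of 9 genes rose, with a median of 1.16. ETV5, an ETS factor induced by FGF signalling, rose from 2.12 ± 0.960 to 22.1 ± 2.37 CPM, and EGR1, an immediate-early zinc finger factor, from 8.88 ± 1.97 to 77.8 ± 19.8 CPM (SD, n = 4). CCND1, the cyclin that carries growth signals to the cell cycle, was the gene that fell, from 166 to 91.1 CPM (-0.87 ± 0.047, SE). Of its exonic bases, 10.3% are overlapped by LTO1 on the other strand.

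Of 16 tested growth factor receptors 4 were higher, 3 were lower and 9 were not called (median -0.01). ERBB4, a receptor for neuregulins, rose from 69.6 to 128 CPM, FGFR1 rose by 0.52 on the log2 scale, and RET, the receptor for GDNF ligands, rose from 1.28 to 4.47 CPM. Of 12 tested EGF-family and FGF ligands 4 were higher, 3 were lower and 5 were not called (median 0.32); without AREG, which passed the count filter through KO libraries only, 3 of 11 were higher. HBEGF, a ligand of the EGF receptor, rose from 4.05 ± 0.752 to 18.5 ± 2.45 CPM (SD, n = 4), TGFA rose by 0.78 on the log2 scale, and FGF2 fell from 29.7 to 15.2 CPM. Of the exonic bases of FGF2, 11.9% are overlapped by NUDT6 on the other strand. Over all 10 lists, 50 of 125 tested genes were higher (40%), 30 were lower and 45 were not called. Of all tested genes, 31.8% were called higher and 31.2% lower. The 50 include PTPN5, GADD45G, ETV4, IER3 and AREG, which passed the count filter through KO libraries only. RASAL1, among the 30, passed it through control libraries only. The ERK-responsive list gave 10 of the 50.

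The genes whose log2 CPM followed SPRY4, the gene of the group with the largest fold change, most closely over the 8 libraries were SKP1 (Pearson r 0.998), HSP90AA1 (0.997) and PTTG1IP (0.996). Their own log2 fold changes were 0.63, 0.52 and 0.46. The 8 libraries form a KO and a control cluster, so these values describe mainly that step, and nothing follows from them about shared function.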

How the data were processed

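Stranded poly(A) libraries (TruSeq) were sequenced as paired-end reads, per the labels' protocols. The authors deposited 1 table of raw, unnormalised counts per library, made with featureCounts on hg38, per the submitters' processing notes. The deposited tables also give each gene's length in bases, per the file headers, used here for CPM per kb. The strand setting, filters, aligner and release of the annotation were not given in the sources used here.

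Of 28395 entries, 459 without a gene ID were left out (0.0284 to 0.0425% of counts). Of the 27936 others, 27744 matched a symbol in a RefSeq annotation of GRCh38.p14. Totals were 3723992 to 18841774 counts per library.

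The filter was edgeR's filterByExpr across 4 groups, with a minimum count of 10 and a minimum total of 15, and passed 14455 genes. KO was compared with control with edgeR 4.0.16 (quasi-likelihood test, TMM, R 4.3.3) on all 8 libraries with a guide term (5 residual degrees of freedom; biological coefficient of variation 0.0473). Other contrasts used 4 group means (4 residual degrees of freedom). Benjamini-Hochberg adjustment covered every tested gene, and genes under 0.05 were called; SE is the log2 fold change divided by the square root of its F statistic. CPM are scaled by TMM factors. Intervals of count ratios are exact at 95%; without molecular identifiers, reads are not independent molecules, so these intervals hold counting error alone. DUSP2 was tested by exact permutation with a pseudocount of 0.5 CPM. The model was tested on simulated data.

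The feedback genes and pathway lists were chosen with earlier results of these data known. Named genes are KAT5, the 10 feedback genes and the 3 tested genes per list with the smallest p. The 3 genes most correlated with the feedback gene of largest fold change are also named. Overlapping or neighbouring genes, genes that passed the filter in 1 arm only, and some cell type markers were named where a value turns on them. The markers and filter cases were picked after their values were seen. Alternatives were another scaling, filter, depth, tool or covariate, a replicate block, and leaving out each library (DESeq2 1.42.0 as the other tool).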

Additional observations from a re-analysis of the deposited data

How the results depend on the processing

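Over all 8 libraries, the 8 tested feedback genes were called higher under each of 16 alternatives: DESeq2 size factors, library totals, no filter, a stricter filter (1 CPM in 4 libraries), counts thinned to 3723992, a replicate block, DESeq2, no guide term, and each library left out. SPRY4 is among the 8, although at full depth it passed the default count filter through KO libraries only. Calls were common under these settings over all tested genes as well, counted in both directions. With library totals 9095 of 14455 genes were called, with no filter 9636 of 21337, and with the stricter filter 8728 of 13493. The share called higher was not counted for each alternative. SPRED1 came nearest to the threshold, with a largest adjusted p of 0.0343 by edgeR. Log2 fold changes ranged from 1.92 to 2.13 for DUSP1, 0.66 to 1.06 for DUSP4, 1.50 to 1.87 for DUSP6, 3.52 to 4.85 for SPRY4 and 0.31 to 0.42 for SPRED1, where the top values of DUSP4 and SPRY4 came with thinned counts.

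With the replicate number as a replicate block, 8 feedback genes were called higher and 8980 genes in all, against 9109 without it, and the block changed no call of a feedback gene. Deviations of same-numbered libraries correlated by 0.0151 for sgRNA1 and 0.0276 for sgRNA2 over 14455 genes. With 2 libraries per group, these values cannot show whether same-numbered libraries shared a culture or day. DESeq2 called 8228 genes in all, and edgeR on thinned counts 6510 of 12595. Thinning left 1 other MAP kinase phosphatase, 3 inhibitors, 1 receptor and 1 ligand called lower, and 1 phosphatase of other families called higher. That last count was 2 without control sgRNA1 replicate 2 or KO sgRNA1 replicate 1, and 1 ligand was lower with DESeq2 or without control sgRNA2 replicate 2. At the depth of the shallowest library, DUSP6 with sgRNA1 and SPRED1 with each guide number were not called, and DUSP2 did not pass the count filter at full depth.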
